A study of Danio rerio with 13 samples.

Results

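The Wnt pathway genes described here are the 77 genes, of 31901 gene IDs in the count tables, whose zebrafish symbols name a Wnt ligand, a Frizzled receptor or a central part of the signalling machinery. Each was found by its symbol. The set holds 26 Wnt ligands, 14 Frizzled receptors, 2 co-receptors (lrp5 and lrp6), 13 secreted inhibitors of the Dickkopf, sFRP and Notum families, 7 R-spondins and genes of their receptor system (rspo1 to rspo4, lgr4, lgr6 and znrf3), 9 cytoplasmic components (axin1, axin2, apc, apc2 and the Dishevelled genes) and 6 nuclear effectors (ctnnb1, lef1, tcf7, tcf7l1a, tcf7l1b and tcf7l2). For 12 IDs the paralog letter could not be told from the gene lists used here (pairs of dvl3, fzd3, fzd8, fzd9, sfrp1 and wnt8a), and these are given with their Ensembl ID. For 6 others (dvl1b, fzd7b, wnt2bb, wnt6b, tcf7l1a and notum1a) the letter was inferred by elimination, as the only symbol left over. Symbols lgr5 and rnf43, which the choice would also have taken, matched no ID and were not analysed here.

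RNA was sequenced from sorted endocrine cells of AB strain zebrafish that carried the transgene Tg(pax6b:GFP)ulg515, in which GFP is driven by pax6b regulatory sequence. Pancreatic endocrine cells (PECs) came from the dorsal pancreatic bud at 27 hours post-fertilization (hpf), with 3 wild-type and 3 mutant samples, and enteroendocrine cells (EECs) of the gut came from larvae at 4 days post-fertilization (dpf), with 4 wild-type and 3 mutant samples. Mutants were homozygous for the null allele pax6bsa0086, were bred from heterozygous carriers of the same transgene and were picked by a missing or reduced lens. Each sample pooled cells of many animals, so a value is a mean over the endocrine subtypes present, and fewer cells of a subtype cannot be told apart from less RNA per cell. Wild-type cells came from the transgenic line. Tissue, age and the enzymes used to dissociate the cells went together, and their effects cannot be told apart. Of the 4 wild-type EEC samples, replicates 1 to 3 entered the comparisons and replicate 4 is given in the levels.

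Wnt ligands are lipid-modified secreted proteins that bind Frizzled receptors together with the co-receptors Lrp5 or Lrp6. In the absence of ligand, a destruction complex built on Axin and Apc keeps beta-catenin (ctnnb1) low, whereas receptor activation, relayed through Dishevelled, lets beta-catenin enter the nucleus and act with Tcf and Lef factors on target genes such as axin2. Dickkopf, sFRP and Notum proteins restrain the pathway outside the cell, and R-spondins with their Lgr receptors sustain it. In mammals, Wnt signals maintain the stem cells of the intestinal epithelium and take part in pancreas growth and in the maturation of islet cells.

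Total counts on genes ran from 22423938 to 61895597 per sample, with a median of 33343637, and 3 counts, taken as the detection floor, corresponded to 0.0485 to 0.134 CPM (counts scaled to equal library totals). All 11 endocrine markers matched, of 12 listed, had a mean above 1 CPM in the 4 groups. The 6 pancreatic hormones summed to 42612 to 49525 CPM in wild-type and 9595 to 12158 CPM in mutant PECs. Of these, ins, gcgb, sst1.1 and sst2 were lower in mutants and ghrl and gcga higher. The 6 gut hormones summed to 47151 to 63754 CPM in wild-type and 18511 to 26455 CPM in mutant EECs. Among them pyyb fell, from 23382 to 32919 CPM in wild type to 2649 to 3556 CPM in mutants, and adcyap1a was also lower. Levels of mlnl went the other way, from 447 to 843 CPM to 3075 to 5046 CPM, and ccka, insl5a and penka overlapped between the genotypes. The paper reports changed proportions of endocrine subtypes in both tissues. Their part in the Wnt results was not tested. The 9 enterocyte markers summed to 878 to 1639 CPM in EECs and to 24.2 to 55.2 CPM in PECs, with vil1 alone at 743 to 1361 CPM in EECs. Mutant EEC replicate 1 stood apart in other enterocyte markers, with fabp2 at 285 CPM against 34.0 to 96.8 CPM in the other 6 EEC samples, apoa1a at 109 CPM against 2.55 to 11.7 CPM and apoa4b.1 at 90.5 CPM against 0.323 to 14.9 CPM. Its fabp6, apoa4b.2 and rbp2a were also the highest among EECs. Its vil1, cubn and slc15a1b and its sum, 1614 CPM, lay within the range of the other EEC samples. The 12 neural progenitor markers matched summed to 226 to 430 CPM in PECs and 37.7 to 56.1 CPM in EECs, with fabp7a alone at 154 to 349 CPM in PECs. The marker foxj1a went the other way, with 7.02 to 9.56 CPM in PECs and 24.4 to 38.8 CPM in EECs. Mutant PEC replicate 2 stood apart in the sum of the 13 mesenchyme and muscle markers matched, 126 CPM against 19.6 to 42.0 CPM in the other 5 PEC samples. Its collagen genes were raised, with col1a1a at 21.8 CPM against 0.0342 to 2.25 CPM and col1a2 at 44.8 CPM against 6.40 to 14.6 CPM. Of the muscle genes, myh11a was raised, at 1.64 CPM against 0.0323 to 0.515 CPM. Its actc1b, acta2, tagln and myog lay within the range of the other PEC samples. Mutant EEC replicate 1 had the highest sum of the 13 mesenchyme and muscle markers among EECs, 68.2 CPM against 6.39 to 26.4 CPM. Transcripts of pax6b itself stood at 2509 to 5086 CPM in wild-type and 3199 to 7530 CPM in mutant PECs, and at 466 to 807 CPM in wild-type and 1028 to 1473 CPM in mutant EECs, so its RNA level was no check of the genotype. The paper checked the genotype from the reads and reports the sa0086 allele in all pax6b reads of the mutants.

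The Wnt genes were expressed unevenly by role. Of the 77, 33 had a mean above 1 CPM in wild-type PECs, 35 in mutant PECs, 29 in wild-type EECs and 36 in mutant EECs, while 33 stayed below 1 CPM in every group mean. Of the 26 ligands, 15 never passed 1 CPM in any sample, and both wnt8a IDs had no count at all. By contrast, 7 of the 9 cytoplasmic components and 9 of the 14 Frizzled receptors passed 1 CPM on average in wild-type PECs. A filter on low counts left 50 to 52 members in each pairwise comparison: 42 were tested in all 4 and 20 in none. In all, 31 members passed at least 1 of the 5 tests and 46 passed none. Of these 46, 38 lay outside the core genes described next, and 24 of the 38 stayed at or under 1 CPM in every sample. The other 14 were fzd and dvl genes for the most part, with a highest value of 45.2 CPM, in dvl3 ENSDARG00000015707, and of 6.95 CPM among the fzd genes, in fzd6.

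Beta-catenin itself (ctnnb1), which also links cadherins at cell junctions, was abundant in every group. Its level was 311, 278 and 570.2 CPM (wild type) and 485, 559.6 and 271 CPM (mutant) in PECs, and 329, 267, 276 and 210.2 CPM (wild type) and 288, 286 and 275 CPM (mutant) in EECs. The ranges of the 4 groups overlapped, and wild-type EEC replicate 4 was the lowest sample. Mutant and wild type differed on the log2 scale by -0.0038 (SE 0.31, adjusted p = 0.997) in PECs and -0.10 (SE 0.19, adjusted p = 0.873) in EECs, with 95% intervals of -0.68 to 0.67 and -0.52 to 0.32, and each of these tests missed the threshold.

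The scaffold genes of the destruction complex were also present throughout. Axin1 transcripts stood at 78.3, 62.1 and 70.3 CPM in wild-type and 65.5, 91.5 and 60.1 CPM in mutant PECs, and at 92.6, 55.0, 91.5 and 54.1 CPM in wild-type and 62.0, 85.5 and 53.0 CPM in mutant EECs. For axin2, the feedback component that reports pathway activity in many tissues, the values were 29.5, 21.0 and 34.3 CPM, 25.3, 36.0 and 23.8 CPM, 18.1, 21.3, 29.1 and 14.9 CPM and 27.3, 26.9 and 26.8 CPM in the same order of groups. All groups overlapped for both genes, and neither passed a test in any of the 5 comparisons.

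**Figure D1:**
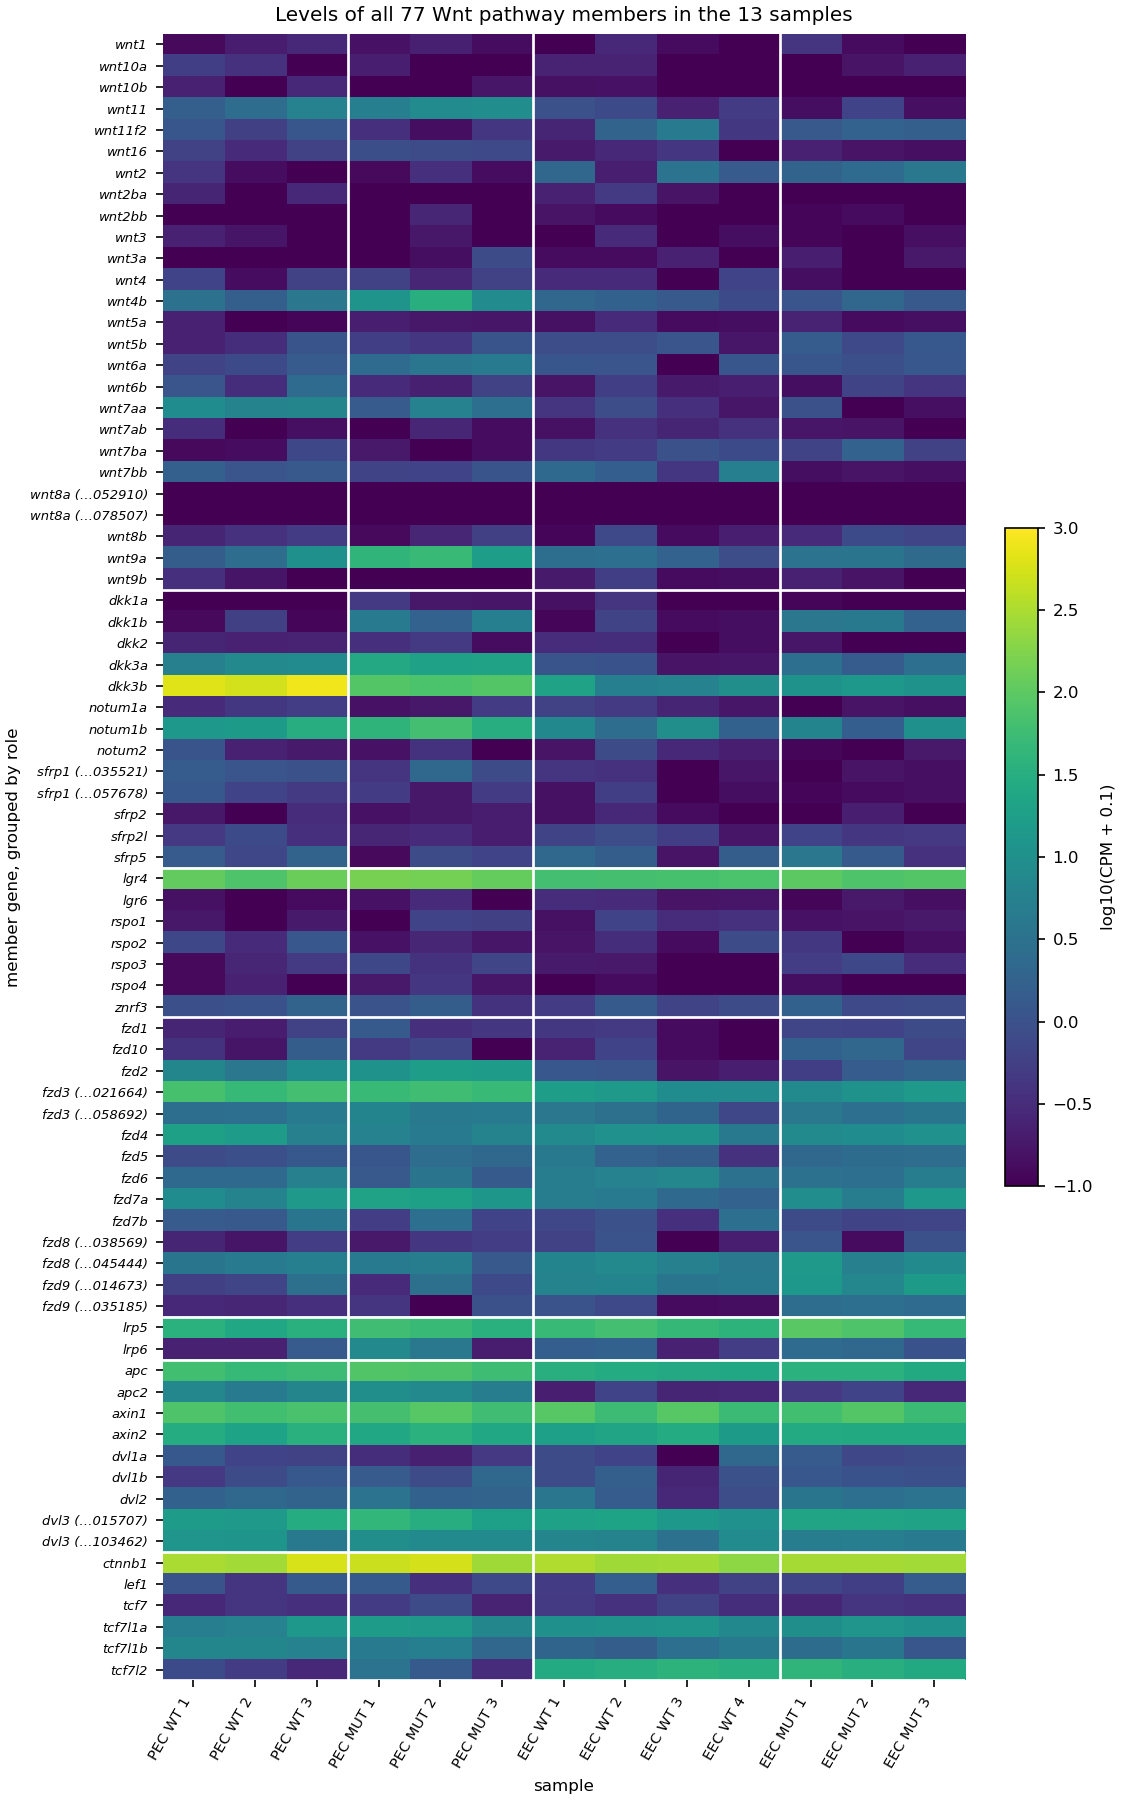
Heat map of the 77 members (rows, grouped by role from ligands at the top to nuclear effectors at the bottom) in the 13 samples (columns, by group), coloured by log10(CPM + 0.1). Most ligand rows are dark in every sample, whereas ctnnb1, axin1, axin2, apc, lgr4 and lrp5 are bright throughout, dkk3b is brightest in PECs and tcf7l2 in EECs.

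Among the other core genes, lgr4, the R-spondin receptor, had 109, 79.6 and 128 CPM (wild type) and 150.1, 145 and 115 CPM (mutant) in PECs, and 64.5, 67.0, 68.5 and 74.0 CPM (wild type) and 97.4, 78.1 and 85.5 CPM (mutant) in EECs. The ubiquitin ligase gene znrf3, whose product removes Frizzled from the membrane, had a highest value of 1.81 CPM and overlapped in all groups (0.834, 0.923 and 1.81 CPM, 0.945, 1.44 and 0.289 CPM, 0.406, 1.25, 0.549 and 0.736 CPM and 1.66, 0.660 and 0.758 CPM in the same order). The co-receptor gene lrp6 was uneven between replicates, with 0.130, 0.137 and 1.31 CPM (wild type) and 7.67, 3.91 and 0.108 CPM (mutant) in PECs, and 1.46, 1.64, 0.129 and 0.426 CPM (wild type) and 2.43, 2.16 and 0.936 CPM (mutant) in EECs. Of the Tcf and Lef factors, lef1 never passed 1.49 CPM (0.964, 0.308 and 1.24 CPM, 1.26, 0.247 and 0.651 CPM, 0.390, 1.49, 0.259 and 0.503 CPM and 0.598, 0.450 and 1.38 CPM) and tcf7 never 0.740 CPM (0.182, 0.308 and 0.242 CPM, 0.401, 0.740 and 0.145 CPM, 0.374, 0.268, 0.485 and 0.232 CPM and 0.173, 0.300 and 0.268 CPM). The Tcf gene tcf7l1a, which acts largely as a repressor in zebrafish, was found at 5.00, 5.92 and 13.3 CPM, 15.9, 14.0 and 6.76 CPM, 9.92, 10.7, 11.5 and 7.28 CPM and 9.73, 12.2 and 10.3 CPM. None of znrf3, lrp6, lef1, tcf7 and tcf7l1a passed a test in any comparison in which it was tested.

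The first comparison asked which Wnt genes change in PECs when pax6b is lost. In mutant PECs 3 ligands (wnt9a, wnt4b and wnt6a) and 3 secreted inhibitors (dkk1b, dkk3a and notum1b) rose, and dkk3b and the receptor gene fzd4 fell. With the edgeR quasi-likelihood test and an adjusted p under 0.1, 8 of the 51 members tested were called, 15.7%, against 11.2% of all genes tested. Of these, 6 were higher (5.43% of all genes) and 2 lower (5.74% of all genes). The median log2 fold change of the 51 members was 0.03, against 0.02 over all genes.

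The inhibitors moved in both directions. Transcripts of dkk3b were the most abundant of the inhibitor counts in wild-type PECs, at 626, 539 and 822 CPM, and fell to 86.2, 73.7 and 85.0 CPM in mutants. Every mutant sample lay far below every wild-type sample, and the means were 663 ± 145 CPM (SD, n = 3) and 81.7 ± 6.87 CPM (SD, n = 3). The log2 fold change was -3.24 (SE 0.26, adjusted p = 6.34e-06). Its paralog dkk3a was at 5.44, 7.63 and 8.55 CPM in wild-type and 25.9, 19.3 and 19.9 CPM in mutant PECs, again without overlap but in the opposite direction, with a log2 fold change of 1.36 (SE 0.32, adjusted p = 0.0204). Dkk3 proteins are the divergent members of the Dickkopf family, which in mammals are not classical blockers of Lrp5 and Lrp6. In the RefSeq gene table dkk3a, lgr4 and dvl2 lie on the chromosome of pax6b, and of these only dvl2 lies within 10 Mb of it.

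Transcripts of dkk1b, which encodes a secreted antagonist of Lrp5 and Lrp6, were below the detection floor in wild-type PEC replicates 1 and 3, at 0.0260, 0.479 and 0.0162 CPM, and reached 4.27, 1.69 and 5.13 CPM in mutants. The 3 mutant samples were all above the 3 wild-type samples, and replicate 2 was the highest of the wild type and the lowest of the mutants. The log2 fold change was 4.23 (SE 1.02, adjusted p = 0.0226). In summed counts, 332 against 16, the ratio of the groups was 30.9, with an exact 95% interval of 18.8 to 54.7 that covers counting error only. The Notum gene notum1b, whose family encodes an enzyme that strips the lipid from Wnt ligands, had 13.4, 15.1 and 30.8 CPM in wild-type and 40.3, 64.7 and 30.9 CPM in mutant PECs, a log2 fold change of 1.02 (SE 0.34, adjusted p = 0.0995), with wild-type replicate 3 and mutant replicate 3 almost equal.

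Of 11 ligands tested, the 3 that passed the edgeR test all rose. DESeq2, which called 13.8% of all genes, called 6 of the 11. Over all members DESeq2 called 7 higher and 6 lower, among them all 8 edgeR calls. No call changed its direction, but the balance of higher and lower calls depended on the method. For wnt9a, a ligand known in zebrafish for the expansion of blood stem cells, the values were 1.41, 2.60 and 10.0 CPM in wild-type and 40.9, 49.4 and 17.6 CPM in mutant PECs, and the log2 fold change was 2.82 (SE 0.57, adjusted p = 0.00841). For wnt4b they were 3.00, 1.50 and 3.72 CPM and 11.7, 32.6 and 8.39 CPM, with a log2 fold change of 2.48 (SE 0.52, adjusted p = 0.00988). The groups did not overlap for either gene, and the highest value of both was that of mutant replicate 2, the sample with the raised collagen genes. Without that sample wnt4b rose by 1.68 and wnt9a by 2.52 on the log2 scale and both stayed called, with adjusted p = 0.0737 and adjusted p = 0.0507. The highest notum1b value was also in mutant replicate 2, and without it notum1b rose by 0.67 on the log2 scale and was not called, at adjusted p = 0.408. The part of the mesenchyme and muscle markers in these results was not tested. The third ligand, wnt6a, stood at 0.573, 0.684 and 1.31 CPM in wild-type and 2.43, 3.66 and 4.19 CPM in mutant PECs without overlap, a log2 fold change of 1.80 (SE 0.52, adjusted p = 0.0511).

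Other ligands tested in PECs did not pass the edgeR threshold, though wnt11f2, wnt7aa and wnt6b, all lower on average in mutants, had an unadjusted p under 0.05. The non-canonical ligand gene wnt11f2, which directs cell movements during zebrafish gastrulation, had 1.09, 0.479 and 1.08 CPM in wild-type and 0.258, 0.0411 and 0.325 CPM in mutant PECs, without overlap, at adjusted p = 0.115. The values of wnt7aa were 8.60, 6.05 and 6.43 CPM and 1.32, 5.92 and 2.78 CPM, with a narrow gap between the lowest wild-type and the highest mutant sample, at adjusted p = 0.162. Those of wnt6b, 1.04, 0.239 and 2.44 CPM and 0.200, 0.123 and 0.506 CPM, overlapped, at adjusted p = 0.132. Levels of wnt11 were 1.54, 2.57 and 5.88 CPM and 5.27, 8.30 and 8.97 CPM and overlapped between the genotypes. The ligand wnt16 had 0.521, 0.205 and 0.485 CPM and 0.802, 0.740 and 0.651 CPM, low in all samples. For wnt7bb the values were 1.62, 1.03 and 1.196 CPM and 0.573, 0.534 and 1.01 CPM, a log2 difference of -1.10 (SE 0.60, adjusted p = 0.337).

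Of the 13 Frizzled genes tested in PECs, only fzd4 was called, at 18.8, 16.0 and 5.41 CPM in wild-type and 5.75, 4.28 and 6.003 CPM in mutant samples, a log2 fold change of -1.64 (SE 0.49, adjusted p = 0.0619). Wild-type replicate 3 lay within the range of the mutants. DESeq2 called 2 of the 13. At an unadjusted p under 0.05 fzd2 would also have counted (log2 fold change 1.00, SE 0.37, adjusted p = 0.130). Its values were 6.69, 3.76 and 8.60 CPM in wild-type and 10.8, 16.6 and 16.1 CPM in mutant PECs. Neither the 9 cytoplasmic genes nor the 5 nuclear, 3 R-spondin system and 2 co-receptor genes tested held a call in edgeR or in DESeq2, which called 13.8% of all genes. At an unadjusted p under 0.05, dvl1a, tcf7l1b and lrp6 would have counted among these 19 genes. The Dishevelled gene dvl1a had 1.17, 0.547 and 0.501 CPM and 0.229, 0.123 and 0.362 CPM, and tcf7l1b had 6.82, 6.67 and 5.93 CPM and 4.15, 5.14 and 2.02 CPM in wild type and mutants. The difference in lrp6, 2.74 (SE 1.07, adjusted p = 0.158) on the log2 scale, rested on mutant replicates 1 and 2, while mutant replicate 3 was as low as the wild type, and it was called without wild-type PEC 3 or mutant PEC 3.

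The number of called members in PECs depended on single samples. It was 4 without wild-type PEC 1, 5 without mutant PEC 1 and 14 without wild-type PEC 3. Calls over all genes moved the same way. They were 1015 higher and 1074 lower with all samples, 571 and 681 without wild-type PEC 1, and 553 and 595 without mutant PEC 1. Without wild-type PEC 3 they were 2049 and 1824. The calls of dkk1b, dkk3b, wnt4b and wnt9a held whichever sample was left out, whereas 4 others were lost in some cases. For dkk3a this was so without wild-type PEC 1 or mutant PEC 1 (adjusted p = 0.106 and 0.121), and for wnt6a without wild-type PEC 1 or 2 or mutant PEC 2 or 3 (0.110 to 0.196). The call of notum1b was lost without wild-type PEC 1 or 2 or mutant PEC 1 or 2 (adjusted p = 0.191 to 0.408), and that of fzd4 without any of these or mutant PEC 3 (0.113 to 0.242).

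**Figure D2:**
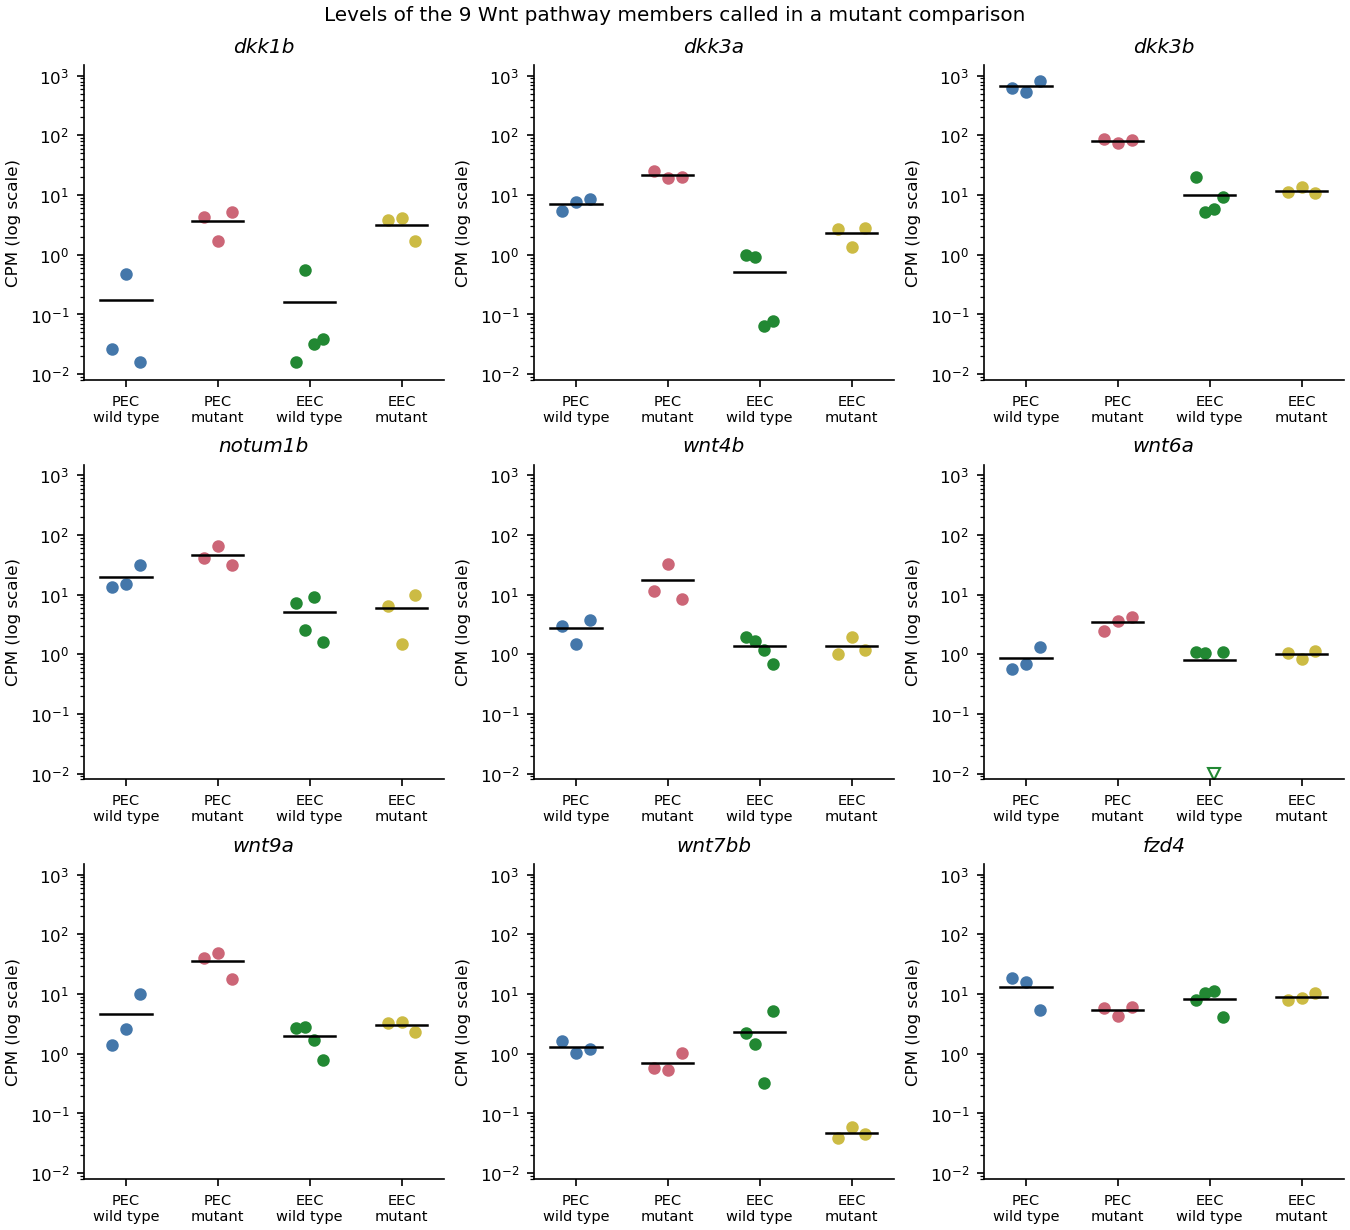
Levels in CPM (log axis) of the 9 members called in a comparison of mutant and wild type, with 1 point per sample, a black bar at the group mean and an open triangle at the bottom for a sample without counts. In PECs dkk3b fell from 539 to 822 CPM to 73.7 to 86.2 CPM, dkk1b was higher in mutants of both tissues, and wnt7bb was near the floor in the 3 mutant EEC samples, at 0.0386 to 0.0600 CPM; the wild-type EEC points include replicate 4.

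In EECs, the loss of pax6b moved few Wnt genes past the threshold. The inhibitor dkk1b rose and the ligand wnt7bb fell: 2 of the 50 members tested were called, 4.00%, against 4.18% of all genes tested (1.82% higher and 2.36% lower). The share of called members was close to that of all genes. The median log2 fold change of the members was 0.22, against 0.02 over all genes.

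As in PECs, dkk1b was below the floor in 3 of the 4 wild-type EEC samples, at 0.0163, 0.566, 0.0323 and 0.0387 CPM, and above it in mutants, at 3.78, 4.08 and 1.69 CPM. All 3 mutant samples were above all 4 wild-type samples, of which replicate 2 was the highest. The log2 fold change was 3.96 (SE 1.11, adjusted p = 0.0942), and summed counts over replicates 1 to 3, 370 against 21, gave a ratio of 20.6 (exact 95% interval 13.3 to 33.7, counting error only). Expression of wnt7bb went the other way, from 2.24, 1.49, 0.323 and 5.30 CPM to 0.0386, 0.0600 and 0.0446 CPM, where no mutant sample held more than 2 counts. The wild-type samples were themselves spread, with replicate 3 the lowest, and all lay above the mutants. The log2 fold change was -4.79 (SE 1.09, adjusted p = 0.0372), a fitted value that depends on the prior count, and summed counts of 198 against 5 gave a ratio of 33.8, with an exact 95% interval of 14.2 to 105.

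Several Frizzled receptors were higher in mutant EECs without passing the edgeR threshold. None of the 14 tested was called by edgeR, 4 had an unadjusted p under 0.05 and the same number was called by DESeq2, which called 8.01% of all genes in this comparison. The 4 were fzd7a (4.68, 4.197, 2.23 and 1.70 CPM in wild type and 9.18, 4.83 and 13.7 CPM in mutants), fzd10 (0.146, 0.536, 0.0323 and 0 CPM and 1.68, 1.98 and 0.580 CPM), fzd9 ENSDARG00000014673 (6.11, 6.28, 3.49 and 4.07 CPM and 13.5, 7.02 and 15.03 CPM) and fzd9 ENSDARG00000035185 (0.943, 0.655, 0.0323 and 0.0387 CPM and 2.56, 2.82 and 2.41 CPM). Mutant and wild-type samples did not overlap for any of them, with narrow gaps for fzd7a (4.68 and 4.83 CPM) and fzd10 (0.536 and 0.580 CPM). The 4 were picked by their test results, so the lack of overlap adds no separate evidence. The cytoplasmic, nuclear, co-receptor and R-spondin system genes, 19 tested, held no call in edgeR or DESeq2 and none had an unadjusted p under 0.05.

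Of the genes called in PECs, dkk1b was also called in EECs and the other 7 were not. The inhibitor dkk3b was low in EECs of both genotypes, at 19.9, 5.30, 5.75 and 9.33 CPM and 11.3, 13.4 and 10.7 CPM, and its log2 difference was 0.15 (SE 0.47, adjusted p = 0.928). For dkk3a the mutant EEC samples, at 2.76, 1.35 and 2.81 CPM, all exceeded the wild type, at 0.992, 0.923, 0.0646 and 0.0774 CPM, yet the log2 difference of 1.73 (SE 0.87, adjusted p = 0.403) did not pass the test. Levels of wnt9a were 2.71, 2.77, 1.71 and 0.774 CPM in wild-type and 3.30, 3.36 and 2.32 CPM in mutant EECs (log2 difference 0.27, SE 0.53, adjusted p = 0.876) and those of wnt4b 1.97, 1.67, 1.196 and 0.697 CPM and 1.02, 1.98 and 1.204 CPM (log2 difference -0.25, SE 0.66, adjusted p = 0.913). For wnt6a, notum1b and fzd4 the genotypes overlapped in EECs, at 1.09, 1.04, 0 and 1.08 CPM and 1.06, 0.840 and 1.11 CPM, 7.33, 2.59, 9.24 and 1.63 CPM and 6.36, 1.47 and 9.99 CPM, and 7.998, 10.3, 11.3 and 4.07 CPM and 7.98, 8.58 and 10.5 CPM.

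With 3 samples per group, the EEC calls depended on each of several samples. Over all genes, 339 were called higher and 441 lower in EECs. These counts were 198 and 324 without wild-type EEC 1 and 178 and 270 without mutant EEC 1. They were 160 and 231 without mutant EEC 2 and 351 and 289 without mutant EEC 3. Neither member was called without wild-type EEC 1 or without any of the mutant EEC samples, and without wild-type EEC 3 only wnt7bb was called. In these cases the adjusted p was 0.127 to 0.252 for dkk1b and 0.128 to 0.174 for wnt7bb. Without mutant EEC 1 it was 0.204 for dkk1b and 0.157 for wnt7bb. That sample had several raised enterocyte markers and the highest sum of mesenchyme and muscle markers among EECs. The part of these markers was not tested.

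Whether the effect of the pax6b mutation differed between the tissues was tested by the interaction of genotype and tissue. Of 59 members tested, 2 were called, 3.39%, against 3.58% of all genes (1.71% with a higher and 1.87% with a lower effect in EECs). These were dkk3b, whose effect was higher in EECs by 3.39 (SE 0.53, adjusted p = 0.00209) on the log2 scale, and wnt4b, with an interaction of -2.72 (SE 0.75, adjusted p = 0.0755), a lower effect in EECs. The call of dkk3b held whichever sample was left out. That of wnt4b was lost without wild-type PEC 1 or 2, mutant PEC 2, wild-type EEC 1 or 2 or mutant EEC 1 or 3, with adjusted p between 0.111 and 0.339, and then 1 member was called. It was also lost with wild-type EEC 4 added, at adjusted p = 0.117. Without wild-type PEC 3 or wild-type EEC 3, 4 were called, as they were with DESeq2, which called 6.04% of all genes.

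For the other genes named above the difference between tissues was not resolved. The interaction was -2.52 (SE 0.76, adjusted p = 0.11) for wnt9a and -3.68 (SE 1.13, adjusted p = 0.119) for wnt7bb, and both missed the threshold. That of wnt9a passed it with DESeq2, RLE normalization, no filter on low counts or a filter of 1 CPM in 3 samples (adjusted p = 0.0265 to 0.0966), and without wild-type PEC 3 or mutant PEC 3 (0.00792 and 0.0679). That of wnt7bb passed it with DESeq2, with wild-type EEC 4 added and without wild-type EEC 3 (adjusted p = 0.0255, 0.0674 and 0.0397). For dkk1b it was -0.19 (SE 1.55, adjusted p = 0.98), with a 95% interval of -3.47 to 3.10, and for dkk3a 0.37 (SE 0.77, adjusted p = 0.898), with an interval of -1.26 to 2.01, so that neither an equal nor a clearly different effect was established.

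**Figure D3:**
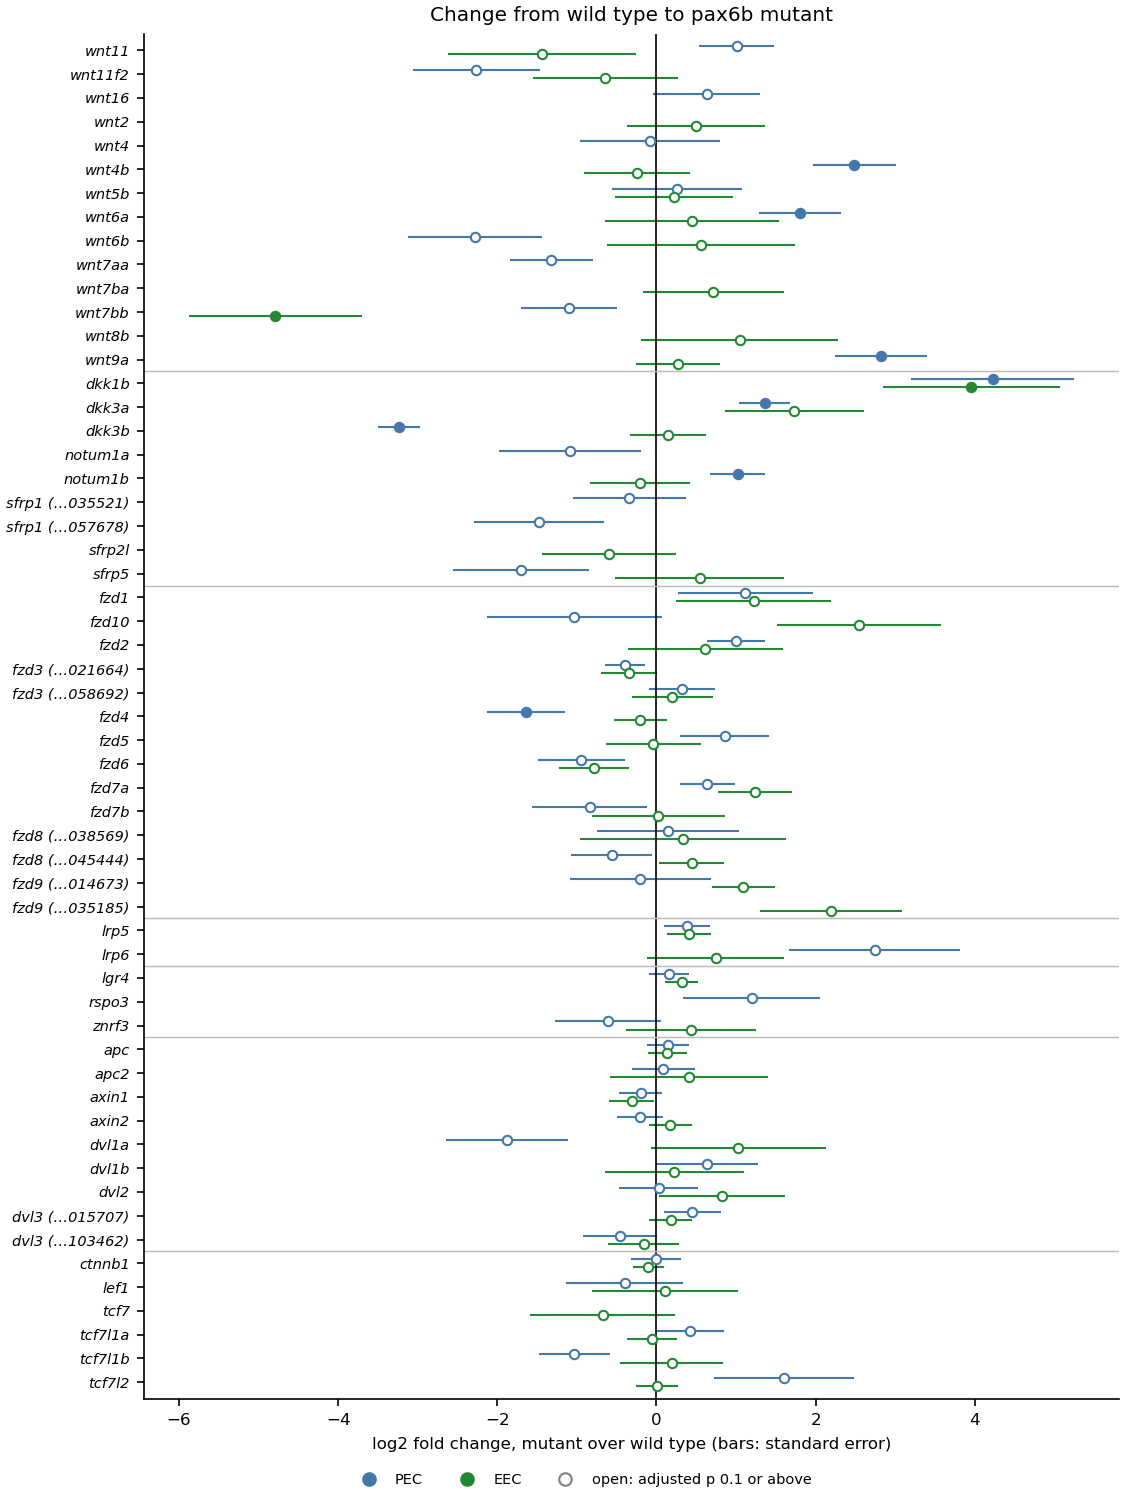
Log2 fold change of mutant over wild type for every member tested in PECs (blue) or EECs (green), grouped by role, with bars for the standard error and filled points for an adjusted p under 0.1. Filled points lie among the ligands, the secreted inhibitors and fzd4; the axin, apc, dvl and tcf genes are open in both tissues.

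The third question was how wild-type EECs and PECs differ in Wnt genes. EECs had far more tcf7l2, and more lrp5, wnt2 and fzd9 ENSDARG00000014673, while PECs had more of 14 members, among them dkk3b, dkk3a, apc2, wnt7aa, fzd2 and notum1b. Of 52 members tested, 18 were called, 34.6%, against 34.2% of all genes. The directions were uneven, with 4 members higher in EECs (18.4% of all genes were) and 14 lower (15.8% of all genes), and the median log2 fold change was -0.23 against -0.02 over all genes.

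The nuclear effector tcf7l2, in mammals the main Tcf factor of the intestinal epithelium, was close to absent in wild-type PECs, at 0.703, 0.410 and 0.178 CPM, and stood at 27.9, 30.8, 38.0 and 32.4 CPM in wild-type EECs. The mutants kept this order, with 3.26, 1.27 and 0.217 CPM in PECs and 41.1, 33.1 and 26.9 CPM in EECs. Every EEC sample exceeded every PEC sample by a wide margin, and the log2 fold change was 6.25 (SE 0.57, adjusted p = 8.15e-06) in wild type and 4.55 (SE 0.69, adjusted p = 0.000492) in mutants. Within PECs mutants were not called higher, at a log2 difference of 1.60 (SE 0.88, adjusted p = 0.341). All 9 enterocyte markers had a mean above 1 CPM in EECs of both genotypes and 5 of them in PECs, and their part in the level of tcf7l2 was not tested. A second Tcf gene, tcf7l1b, differed in the other direction in wild type, with EEC values of 1.82, 1.43, 2.78 and 4.03 CPM and a log2 fold change of -1.67 (SE 0.51, adjusted p = 0.028).

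Of 8 inhibitors tested between the wild-type tissues, 4 were called, all lower in EECs, against 15.8% of all genes called lower. The filter on low counts keeps such genes as sfrp1 ENSDARG00000035521 through PECs, where they are higher, so no conclusion is drawn from this share. Between PECs and EECs the log2 fold change was -5.95 (SE 0.53, adjusted p = 6.28e-06) for dkk3b, -3.41 (SE 0.76, adjusted p = 0.00517) for dkk3a and -1.53 (SE 0.48, adjusted p = 0.0324) for notum1b. The sFRP gene sfrp1 ENSDARG00000035521, which encodes a secreted Wnt-binding protein, stood at 1.35, 1.03 and 0.889 CPM in wild-type PECs and 0.293, 0.268, 0 and 0.0774 CPM in wild-type EECs, a log2 fold change of -2.51 (SE 1.04, adjusted p = 0.0952). The groups did not overlap for any of these genes, which adds no separate evidence because they were picked by their test results.

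The ligands were low in both tissues and differed in both directions. PECs had more wnt7aa (8.60, 6.05 and 6.43 CPM against 0.293, 0.774, 0.259 and 0.0774 CPM in wild-type EECs, log2 fold change -4.00, SE 0.63, adjusted p = 0.000491). They also had more wnt11 (EEC values of 0.878, 0.685, 0.129 and 0.387 CPM, log2 fold change -2.45, SE 0.78, adjusted p = 0.0355) and wnt6b (EEC values of 0.0650, 0.446, 0.0970 and 0.116 CPM, log2 fold change -2.51, SE 1.04, adjusted p = 0.0951). The ligand gene wnt2, which in mouse takes part in lung specification, was higher in EECs, at 1.98, 0.119, 3.20 and 1.32 CPM against 0.313, 0.0342 and 0 CPM, with a log2 fold change of 3.92 (SE 1.42, adjusted p = 0.0599). Wild-type EEC replicate 2 lay within the range of the wild-type PECs for both wnt2 and wnt6b.

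Receptors and scaffolds also separated the tissues. PECs had more of fzd3 ENSDARG00000021664 (68.8, 48.0 and 63.0 CPM against 17.2, 14.0, 8.73 and 8.29 CPM, log2 fold change -2.15, SE 0.31, adjusted p = 0.000281), whose mouse counterpart is known for axon guidance. Levels of fzd2 were 6.69, 3.76 and 8.60 CPM in wild-type PECs and 1.12, 1.04, 0.0646 and 0.116 CPM in wild-type EECs (log2 fold change -3.03, SE 0.78, adjusted p = 0.0125), and fzd7a had 8.62, 5.95 and 14.4 CPM in wild-type PECs (log2 fold change -1.31, SE 0.46, adjusted p = 0.0503). In contrast fzd9 ENSDARG00000014673 was at 0.469, 0.581 and 2.92 CPM in PECs and higher in EECs (log2 fold change 2.13, SE 0.68, adjusted p = 0.0338). The co-receptor lrp5 had 35.5, 23.7 and 34.3 CPM in wild-type PECs and 49.9, 64.5, 45.6 and 38.5 CPM in wild-type EECs, a log2 fold change of 0.80 (SE 0.27, adjusted p = 0.0419).

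Both Apc genes were lower in EECs. The values of apc were 60.9, 48.4 and 55.6 CPM in wild-type PECs and 31.9, 28.6, 25.6 and 24.7 CPM in wild-type EECs (log2 fold change -0.92, SE 0.26, adjusted p = 0.0194), without overlap. For apc2, the paralog expressed mainly in neurons in mammals, they were 6.98, 4.14 and 6.59 CPM and 0.114, 0.536, 0.162 and 0.194 CPM (log2 fold change -4.45, SE 0.72, adjusted p = 0.000645). Of the 12 neural progenitor markers, 9 had a mean above 1 CPM in PECs and 5 in EECs. The 8 markers of enteric and other neurons summed to 307 to 369 CPM in wild-type PECs and 341 to 507 CPM in wild-type EECs. Among them, ret and hoxb5b were higher on average in EECs, and elavl4, phox2a, chata, slc18a3a and th in PECs. The part of either list in the level of apc2 was not tested. The R-spondin receptor gene lgr4 was also lower in EECs, by a small amount (log2 fold change -0.62, SE 0.24, adjusted p = 0.0743).

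Leaving out single samples ended 10 of the 18 calls in wild type at least once, and without wild-type PEC 1 11 calls were left. Over all genes the calls without that sample were 2880 higher and 2154 lower, against 3551 and 3051 with all samples. The calls of apc2, fzd2, fzd3 ENSDARG00000021664, wnt7aa, tcf7l2, dkk3a, dkk3b and notum1b held throughout. Those lost without wild-type PEC 1 were apc (adjusted p = 0.109), fzd9 ENSDARG00000014673 (0.120), fzd7a (0.124), tcf7l1b (0.108), lgr4 (0.262), wnt6b (0.182) and sfrp1 ENSDARG00000035521 (0.249). Without wild-type PEC 2 lrp5 (adjusted p = 0.169), wnt2 (0.159), fzd9 ENSDARG00000014673 (0.129), tcf7l1b (0.128), lgr4 (0.141) and sfrp1 (0.209) were lost, and without wild-type PEC 3 wnt11 (0.135), wnt2 (0.119), fzd7a (0.121), wnt6b (0.307) and sfrp1 (0.117). Without an EEC sample the calls lost were lgr4 (adjusted p = 0.103 to 0.197 without 1, 2 or 3), wnt2 (0.109 and 0.147 without 1 or 3), wnt6b (0.244 and 0.160 without 1 or 3), sfrp1 (0.128 and 0.138 without 1 or 2), lrp5 (0.101), fzd7a (0.108) and tcf7l1b (0.105), the last 3 without 2.

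In mutants, 25 of the 51 members tested differed between EECs and PECs, 49.0%, against 40.3% of all genes. Of these, 11 were higher in EECs (21.0% of all genes) and 14 lower (19.3% of all genes), and the median log2 fold change was -0.02 against -0.06 over all genes. In wild type and in mutants alike, 9 members were lower in EECs (apc, apc2, fzd2, fzd3 ENSDARG00000021664, wnt11, wnt7aa, dkk3a, dkk3b and notum1b) and 4 higher (lrp5, fzd9 ENSDARG00000014673, wnt2 and tcf7l2). No member was called in opposite directions.

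Of the inhibitors, dkk3b differed by -2.61 (SE 0.24, adjusted p = 1.29e-05) on the log2 scale between mutant EECs and PECs, against -5.95 in wild type, as the interaction above tested. The corresponding values were -3.07 (SE 0.37, adjusted p = 9.16e-05) for dkk3a and -2.80 (SE 0.55, adjusted p = 0.0024) for notum1b. All 3 mutant PEC samples exceeded all mutant EEC samples for each of these genes.

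Of the 26 ligands, 12 were tested between the mutant tissues and 10 of them were called, against 40.3% of all genes. Some were near the floor in 1 tissue, such as wnt7bb with 2, 2 and 1 counts in mutant EECs. Another was wnt2, with 1, 6 and 1 counts in mutant PECs. The filter on low counts keeps such genes through their higher tissue, so this share cannot be compared with that of other roles. Lower in mutant EECs than in mutant PECs were wnt9a (log2 fold change -3.41, SE 0.42, adjusted p = 0.000103), wnt4b (-3.47, SE 0.57, adjusted p = 0.000759), wnt6a (-1.60, SE 0.50, adjusted p = 0.028), wnt7bb (-3.63, SE 0.83, adjusted p = 0.00583) and wnt16 (-2.87, SE 0.78, adjusted p = 0.0147). None of these 5 was called between the wild-type tissues. Levels of wnt16 in EECs were 0.0975, 0.179, 0.323 and 0 CPM in wild type and 0.135, 0.0600 and 0.0446 CPM in mutants. The ligands wnt11 (EEC mutant values of 0.0386, 0.540 and 0.0446 CPM, log2 fold change -4.96, SE 0.86, adjusted p = 0.00109) and wnt7aa (0.867, 0 and 0.0446 CPM, log2 fold change -3.16, SE 1.13, adjusted p = 0.0521) were lower in EECs as in wild type.

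Higher in mutant EECs were 3 ligands. For wnt2 the values were 0.0286, 0.247 and 0.0362 CPM in mutant PECs and 1.75, 2.37 and 3.92 CPM in mutant EECs, with a log2 fold change of 4.87 (SE 0.87, adjusted p = 0.00132). Transcripts of wnt11f2 reached 1.195, 1.68 and 1.52 CPM in mutant EECs, above the mutant PEC values, with a log2 fold change of 2.94 (SE 0.77, adjusted p = 0.0123), while wild-type EECs were spread from 0.163 to 4.52 CPM (0.163, 1.79, 4.52 and 0.348 CPM). For wnt7ba the values were 0.0260, 0.0342 and 0.630 CPM (wild type) and 0.0859, 0 and 0.0362 CPM (mutant) in PECs, and 0.341, 0.417, 0.873 and 0.697 CPM (wild type) and 0.559, 1.71 and 0.491 CPM (mutant) in EECs, with a log2 fold change of 4.46 (SE 1.04, adjusted p = 0.00644) in mutants. The highest value of these 3 ligands in any sample was 4.52 CPM.

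Of the 14 Frizzled genes tested in mutants, 5 were higher in EECs and 2 lower. Higher were fzd9 ENSDARG00000014673 (PEC mutant values of 0.200, 2.92 and 0.651 CPM, log2 fold change 3.40, SE 0.77, adjusted p = 0.00575), fzd9 ENSDARG00000035185 (0.182, 0.171 and 0.242 CPM in wild-type and 0.315, 0 and 0.868 CPM in mutant PECs, log2 fold change 2.88, SE 0.92, adjusted p = 0.0323) and fzd10 (0.287, 0.0684 and 1.44 CPM and 0.372, 0.576 and 0 CPM, log2 fold change 2.34, SE 1.01, adjusted p = 0.0988). So were fzd8 ENSDARG00000045444 (4.18, 4.73 and 1.23 CPM in mutant PECs and 13.9, 5.49 and 7.89 CPM in mutant EECs, log2 fold change 1.58, SE 0.54, adjusted p = 0.0426; wild-type values 3.44, 4.17 and 5.27 CPM and 6.31, 7.50, 5.40 and 3.87 CPM) and fzd4 (log2 fold change 0.92, SE 0.34, adjusted p = 0.0597). Zebrafish Fzd9 proteins include the receptor through which wnt9a acts on blood stem cells. Lower were fzd2 (10.8, 16.6 and 16.1 CPM against 0.443, 1.35 and 1.78 CPM, log2 fold change -3.47, SE 0.52, adjusted p = 0.000388) and fzd3 ENSDARG00000021664 (49.6, 60.2 and 50.9 CPM against 7.81, 10.9 and 14.2 CPM, log2 fold change -2.13, SE 0.28, adjusted p = 0.000151). For fzd7a mutant PECs had 19.96, 18.5 and 12.8 CPM and the difference was not called.

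Among the intracellular and co-receptor genes, apc (82.3, 76.4 and 56.3 CPM in mutant PECs and 36.1, 35.7 and 26.5 CPM in mutant EECs, log2 fold change -0.95, SE 0.26, adjusted p = 0.0139) and apc2 (9.48, 7.52 and 4.92 CPM and 0.366, 0.540 and 0.178 CPM, log2 fold change -4.11, SE 0.56, adjusted p = 0.000213) were lower in mutant EECs. The gene dvl1a was higher (1.31, 0.600 and 0.758 CPM in mutant and 0.715, 0.536, 0 and 2.09 CPM in wild-type EECs, log2 fold change 2.06, SE 0.73, adjusted p = 0.0502), as was lrp5 (59.0, 49.3 and 34.1 CPM and 94.0, 78.6 and 47.9 CPM, log2 fold change 0.81, SE 0.31, adjusted p = 0.0674). Mutant PECs and EECs overlapped for lrp5 but not for apc, apc2 or dvl1a. The mutant EEC values of tcf7l1b were 2.53, 3.51 and 1.07 CPM, those of sfrp1 ENSDARG00000035521 0, 0.0600 and 0.0446 CPM (mutant PECs 0.315, 2.06 and 0.723 CPM) and those of wnt6b 0.0386, 0.570 and 0.312 CPM.

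In mutants 6 of the 25 calls were lost on leaving out some 1 sample. They were lrp5 (adjusted p = 0.115 to 0.222 without mutant PEC 2 or 3 or mutant EEC 1 or 2), dvl1a (0.147 to 0.198 without mutant PEC 1 or 2 or mutant EEC 1) and fzd10 (0.140 to 0.230 without mutant PEC 1 or 3 or mutant EEC 1 or 2). The others were fzd4 (adjusted p = 0.113 to 0.172 without mutant PEC 1 or 2 or mutant EEC 2 or 3), fzd8 ENSDARG00000045444 (0.172 without mutant EEC 1) and wnt7aa (0.102 to 0.183 without mutant PEC 2 or mutant EEC 2 or 3). Plain CPM values ran higher in mutant PECs than in wild-type PECs by a median of 0.24 on the log2 scale over genes above 1 CPM in both, and the corresponding median from mutant PECs to mutant EECs was -0.22. After TMM normalization, which the fold changes above use, these medians were 0.02 and -0.05.

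**Figure D4:**
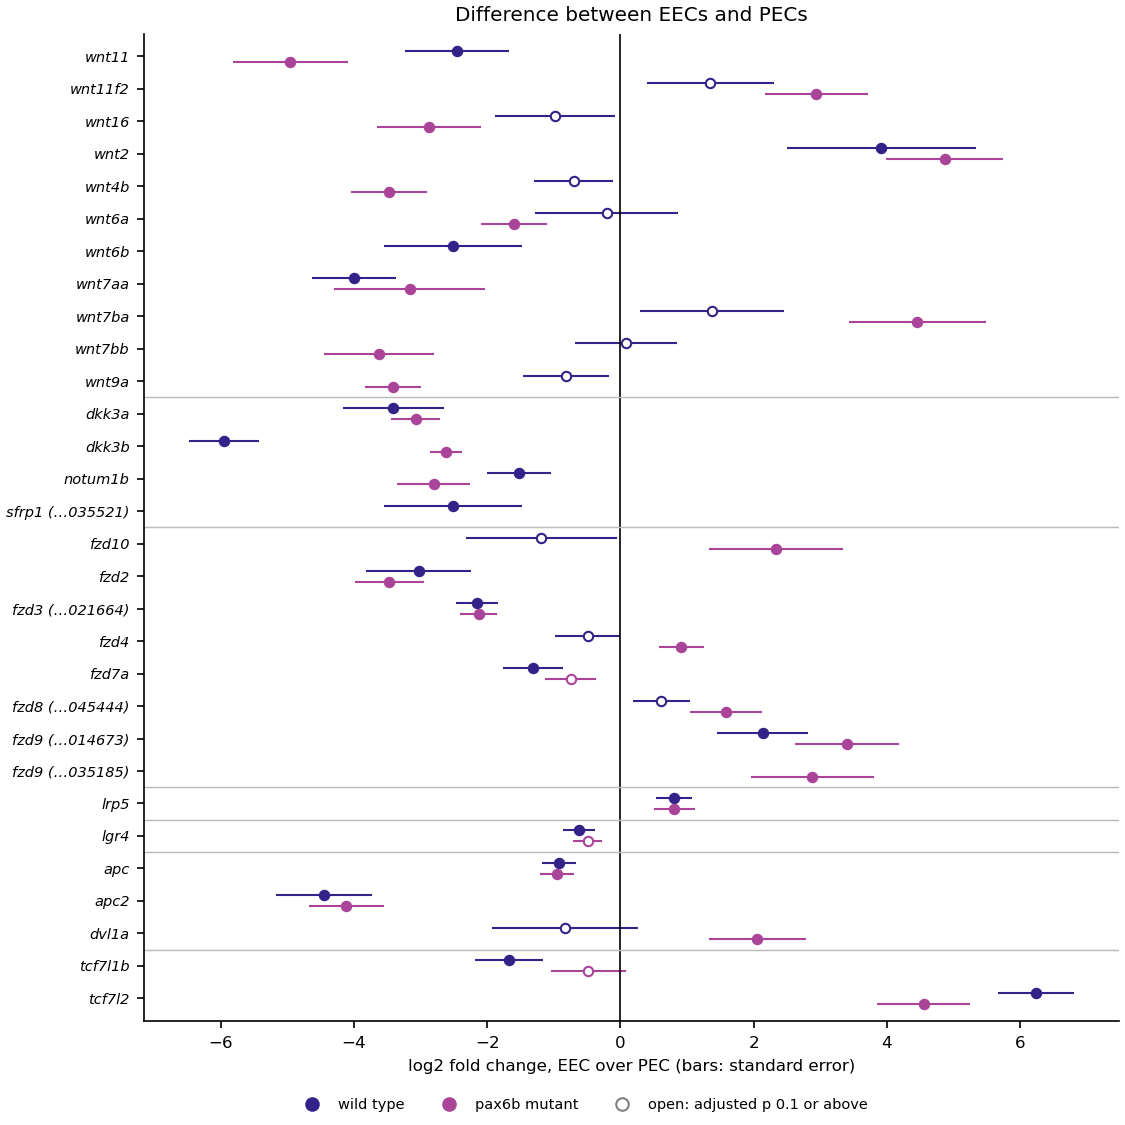
Log2 fold change of EECs over PECs in wild type (dark blue) and in pax6b mutants (purple) for the 30 members called in either, with bars for the standard error and filled points for an adjusted p under 0.1. The dkk, apc and fzd2 and fzd3 genes lie to the left and tcf7l2, wnt2, lrp5 and the fzd9 genes to the right, and dkk3b lies at -5.95 in wild type and -2.61 in mutants.

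Genes of the pathway outside the set were taken from 6 lists with 86 symbols in all, of which 63 matched an ID. In PECs, 10 of 59 tested passed the test in mutants, with 4 higher and 6 lower, and in EECs 3 of 55, with 1 higher and 2 lower. These were 16.9% of the list genes in PECs, against 11.2% of all genes, and 5.45% in EECs, close to the 4.18% of all genes. The lists were chosen with earlier results of these data known, so no conclusion is drawn from these shares. The median log2 fold change was -0.02 in PECs and 0.11 in EECs. None of the 11 tested genes of the destruction complex list, such as the casein kinase genes and gsk3bb, was called in either tissue by edgeR or DESeq2, and none had an unadjusted p under 0.05.

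Of the nuclear cofactors in mutant PECs, 1 of 12 tested rose and 2 fell. The Groucho corepressor gene tle3a, whose family binds Tcf factors and represses their targets, fell in both tissues: it stood at 66.8, 123 and 94.4 CPM in wild-type and 10.1, 7.77 and 8.17 CPM in mutant PECs (log2 fold change -3.70, SE 0.33, adjusted p = 1.94e-05), and at 108, 62.7, 94.3 and 246 CPM and 40.4, 42.6 and 50.7 CPM in EECs (log2 fold change -1.06, SE 0.25, adjusted p = 0.0418). The fall was larger in PECs, with an interaction of 2.64 (SE 0.41, adjusted p = 0.00173) on the log2 scale. In mutant PECs tle2a also fell (38.5, 31.2 and 51.2 CPM to 27.8, 26.9 and 17.1 CPM, log2 fold change -0.96, SE 0.29, adjusted p = 0.0597), whereas tle5, a short Groucho family gene, rose from 7.42, 9.58 and 7.25 CPM to 50.4, 31.7 and 21.2 CPM (log2 fold change 1.83, SE 0.37, adjusted p = 0.00846). In EECs tle5 had 8.84, 9.32, 3.52 and 4.61 CPM in wild type and 29.2, 38.7 and 6.15 CPM in mutants and was not called.

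Among the other inhibitors, 1 of 10 tested rose and 1 fell in mutant PECs. The Dishevelled-binding gene dact2 fell from 6.54, 6.40 and 8.56 CPM to 1.72, 1.03 and 1.23 CPM (log2 fold change -2.65, SE 0.43, adjusted p = 0.00178), while EECs had 23.4, 19.2, 12.1 and 7.16 CPM in wild type and 40.0, 30.0 and 17.3 CPM in mutants, and the effect differed between the tissues (interaction 3.29, SE 0.52, adjusted p = 0.00221). The gene bambib, of the Bambi family of pseudoreceptors that are also Wnt targets, rose in both tissues, from 15.7, 19.4 and 18.2 CPM to 39.6, 42.5 and 52.9 CPM in PECs (log2 fold change 1.1, SE 0.28, adjusted p = 0.0303) and from 12.4, 11.2, 12.2 and 15.3 CPM to 25.4, 23.0 and 27.4 CPM in EECs (1.01, SE 0.26, adjusted p = 0.0708). No sample of 1 genotype overlapped the other for bambib in either tissue.

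Of the target genes, the 2 of 12 tested that were called in PECs, cdx1b and cdx4, both fell in mutants. Of all genes, 5.74% were called lower. The paper treats cdx4 as a factor of pancreatic delta cells and reports fewer of these cells in the mutants. The part of delta cells in the fall of cdx4 was not tested. Caudal homeobox genes pattern the posterior gut and body axis. Levels of cdx1b fell from 98.1, 48.9 and 63.4 CPM to 33.5, 20.1 and 26.4 CPM (log2 fold change -1.64, SE 0.33, adjusted p = 0.00729) and those of cdx4 from 178, 155 and 102 CPM to 42.6, 36.0 and 82.3 CPM (log2 fold change -1.72, SE 0.37, adjusted p = 0.0124). In EECs cdx1a was the 1 of 11 tested that was called, with 33.4, 21.3, 23.9 and 6.85 CPM in wild type and 11.5, 4.86 and 6.69 CPM in mutants (log2 fold change -1.83, SE 0.36, adjusted p = 0.0186). The mutation effect differed between tissues for cdx1a (interaction -3.13, SE 0.60, adjusted p = 0.00846) and cdx1b (1.77, SE 0.40, adjusted p = 0.0259).

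The receptor and secretion list held 1 call of 7 in mutant PECs, the glypican gene gpc4, which rose from 22.9, 18.8 and 47.9 CPM to 124, 101 and 84.9 CPM (log2 fold change 1.62, SE 0.30, adjusted p = 0.00513). In EECs none of its 5 tested genes was called by edgeR, and DESeq2 called 1, gpc4, which alone had an unadjusted p under 0.05. Of the planar polarity genes, which guide tissue polarity through Wnt signals that bypass beta-catenin, vangl1 fell (0.365, 0.821 and 1.91 CPM to 0.0859, 0.164 and 0.0362 CPM, log2 fold change -3.57, SE 0.88, adjusted p = 0.0244) and daam1b rose (14.9, 22.0 and 20.9 CPM to 51.6, 57.1 and 29.5 CPM, log2 fold change 1.02, SE 0.32, adjusted p = 0.0772) among 10 tested in PECs. None of the 9 tested in EECs was called by edgeR or DESeq2, and 2, daam1a and scrib, had an unadjusted p under 0.05.

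Leaving out single samples ended some of these calls. In PECs tle2a was lost without any 1 sample except wild-type PEC 3 (adjusted p = 0.106 to 0.17), bambib without wild-type PEC 1 (0.128), vangl1 without mutant PEC 1 (0.109) and daam1b without wild-type PEC 1 or mutant PEC 1 or 2 (0.254 to 0.269). The calls of tle3a, tle5, dact2, cdx1b, cdx4 and gpc4 in PECs held throughout. In EECs tle3a was lost without wild-type EEC 1 or 3 or mutant EEC 1 or 2 (adjusted p = 0.110 to 0.176) and bambib without any 1 sample except wild-type EEC 3 (0.145 to 0.235). The call of cdx1a held on leaving out any 1 sample. With wild-type EEC 4 added, cdx1a and bambib were not called in EECs (adjusted p = 0.114 and 0.136).

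Between the tissues, 16 of 60 list genes differed in wild type, 8 in each direction, and 29 of 56 in mutants, 13 higher and 16 lower in EECs. These were 26.7% of the list genes in wild type, against 34.2% of all genes, and 51.8% in mutants, against 40.3% of all genes. As above, no conclusion is drawn from shares of lists chosen with earlier results known. From wild-type PECs to wild-type EECs the log2 fold change was 7.01 (SE 0.46, adjusted p = 6.52e-07) for cdx1a, 3.16 (SE 0.33, adjusted p = 2.16e-05) for cdx1b and -2.05 (SE 0.34, adjusted p = 0.000678) for cdx4. These 3 differences were called in mutants as well, at 3.83 (SE 0.51, adjusted p = 0.00017), 4.90 (SE 0.29, adjusted p = 6.67e-07) and -0.81 (SE 0.32, adjusted p = 0.0701). The Wnt carrier gene wls, needed for the release of Wnt ligands, was lower in EECs of both genotypes, by a log2 fold change of -0.87 (SE 0.24, adjusted p = 0.0172) in wild type and -0.73 (SE 0.22, adjusted p = 0.0252) in mutants. The last was lost without mutant EEC 1 or 2, and that of cdx4 in mutants without mutant PEC 3 or mutant EEC 1 or 2.

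**Figure D5:**
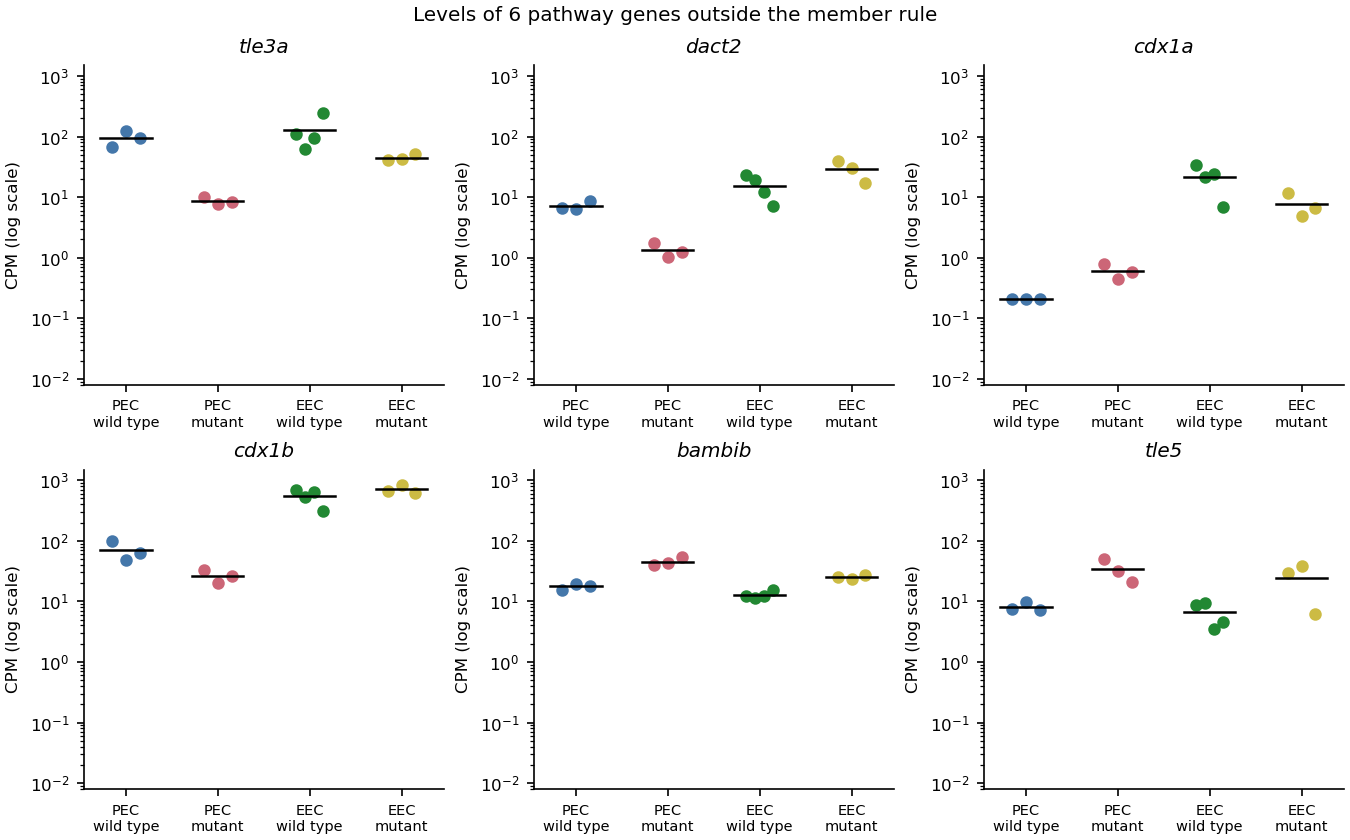
Levels in CPM (log axis) of 6 pathway genes outside the set of 77, chosen after their values were seen, with 1 point per sample and a black bar at the group mean. Levels of tle3a fell in mutants of both tissues and those of bambib rose, dact2 fell in PECs from 6.40 to 8.56 CPM to 1.03 to 1.72 CPM, and cdx1a and cdx1b were higher in EECs than in PECs.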

How the data were processed

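RNA from 13 samples of sorted cells was amplified by Smart-seq2, in 13 PCR cycles, and sequenced by the authors, who mapped the reads with STAR 2.5.4b to GRCz11 with Ensembl release 92 and deposited whole-number counts per gene from STAR's gene counting, 1 table per sample. The strand setting of the counting is not given in the sources used here, and no molecular identifiers were used, so overlapping genes could not be told apart, and counting intervals and floors cover counting error only. Members were found by symbol, through the gene lists at hand, in 31901 gene IDs. The members and all gene lists were chosen with earlier results of these data known. RefSeq was used only for shared chromosomes and the distance to pax6b.

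Counts were converted to CPM for display and tested with the edgeR 4.0.16 quasi-likelihood test (R 4.3.3, TMM normalization, filterByExpr, robust fit), with Benjamini-Hochberg adjustment over all genes tested and a call at an adjusted p under 0.1. Each comparison used its own samples, replicates 1 to 3 of each group, and the interaction used all 12. The standard error was derived from the F statistic. Wild-type EEC 4 was left out because the study's expression table for its mutant comparison holds 3 wild-type EEC samples. The study's separate description of wild-type EECs used 4 preparations. Total counts of 22423938 to 61895597 per sample put the floor of 3 counts at 0.0485 to 0.134 CPM. Replicates were separate preparations, each a pool of animals. The fits were tested on simulated counts. Alternatives were DESeq2 1.42.0, its size factors in edgeR (RLE), other filters, 1 fit of all samples, the replicate number as a block, wild-type EEC 4 added and each sample left out. Values in every sample were given for members called in at least 1 of 5 tests and for 13 core genes, the others by range and counts, and at most 4 called genes were named per list and comparison. Where a gene was named for its call, a lack of overlap between groups is a description and adds no separate evidence. Figures were drawn with matplotlib 3.10.9.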

Additional observations from a re-analysis of the deposited data

Results flagged for a closer look

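Among the 4 wild-type EEC samples, 3 of 39 members tested had 1 sample far from the others, and chance alone gives such a gap in about 1 in 20 groups. Replicate 3 held no count for wnt6a (0 CPM), against 1.09, 1.04, 0 and 1.08 CPM in replicates 1 to 4. Replicate 2 was high for wnt6b, at 0.446 CPM, and for dkk1b, at 0.566 CPM, where the other replicates were at or below 0.116 CPM and 0.0387 CPM. That replicate had counts for 28521 genes, against 24212 to 26674 in the other wild-type EEC samples.

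The interaction term in edgeR called a different effect of the mutation in EECs and PECs for 2 members and 4 other pathway genes. These were 3.39% of the 59 members tested and 6.67% of the 60 list genes tested, against 3.58% of all genes. The interaction was -2.72 for wnt4b, a call lost in 10 of 19 alternatives, and 3.39 for dkk3b on the log2 scale. It was 2.64 for tle3a, 3.29 for dact2, -3.13 for cdx1a and 1.77 for cdx1b.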

How the results depend on the processing

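Of the 55 calls of a member in a comparison, 31 held under every alternative in which the member was tested (4 of 8 in mutant PECs, 0 of 2 in mutant EECs, 8 of 18 between wild-type tissues, 18 of 25 between mutant tissues and 1 of 2 for the interaction), and 0 reversed. In mutant PECs, where 8 members were called, the count was 5 at an adjusted p under 0.05, 13 with DESeq2, 5 with 1 fit of all 12 samples and 4 to 14 on leaving out each sample. In mutant EECs, with 2 called, it was 1 at an adjusted p under 0.05, 6 with DESeq2, 1 with a filter of 1 CPM in 3 samples and 0 to 2 on leaving out each sample. Leaving out samples gave 11 to 17 calls between wild-type tissues and 23 to 29 between mutant tissues. For the interaction, with 2 called, the count was 1 at an adjusted p under 0.05, 4 with DESeq2, 4 without a filter on low counts and 1 to 4 on leaving out each sample. Calls over all genes also changed on leaving out samples, as given above for mutant PECs and mutant EECs. The cause of these changes was not tested.

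With the replicate number as a block, the counts were 5 in mutant PECs, 1 in mutant EECs, 15 between wild-type tissues, 26 between mutant tissues and 1 for the interaction. After removal of group means, same-numbered samples correlated at -0.10 to -0.03 in mutant and wild-type PECs and at -0.08 to 0.04 in EECs. They correlated at -0.07 to 0.09 between wild-type tissues and at 0.05 to 0.19 between mutant tissues. Between mutant tissues unlike numbers gave -0.11 to 0.05. There the block raised the calls over all genes, from 3961 higher and 3638 lower to 4327 and 4181. These values do not settle whether the numbers pair the mutant samples of the 2 tissues. The numbers were not taken to pair samples in any comparison.

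Differences that missed the threshold changed sign in some cases. On the log2 scale, the change of ctnnb1 in mutant PECs ran from -0.22 to 0.25 and that of dkk3b in mutant EECs from -0.19 to 1.02 on leaving out each sample. The interaction of dkk1b ran from -3.11 to 2.73, and was 0.12 with all 4 wild-type EEC samples, and that of dkk3a ran from -0.10 to 0.83. Genes near the floor of 3 counts, most ligands among them, were the ones for which depth limits what could be seen.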
